A study of Oryctolagus cuniculus with 17 samples.

Results

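Genes that mark smooth muscle cells and pericytes, the contractile cells of vessel and airway walls, were followed in lungs of preterm rabbits kept in hyperoxia or normoxia. The set was given as 10 human gene names: 6 smooth muscle genes (ACTA2, TAGLN, MYH11, CNN1, DES and LMOD1) and 4 pericyte genes (CSPG4, RGS5, NOTCH3 and MCAM). For each name the entry with the highest total count was taken, which gave 9 genes out of 13827 entries in the table. All 9 passed the filter on low counts, as did 13142 entries in all, and CNN1 was not analysed here. The smooth muscle genes encode parts of the contractile machine itself, whereas the pericyte genes encode a surface proteoglycan, a signalling regulator, a Notch receptor and an adhesion molecule.

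New Zealand White rabbit pups (Oryctolagus cuniculus) were taken by C-section at 28 days of gestation, before term at 31 days in the series' design text, and all were milk-fed by orogastric tube in incubators. Hyperoxia was 95% O2 and normoxia 21% O2, each for 3, 5 or 7 days. This gave the groups HT3 (n = 3), HT5 (n = 2), HT7 (n = 3), NT3, NT5 and NT7 (n = 3 each). No term-born group and no group without an incubator stay was among the 17 samples, so prematurity is shared by every group. Poly(A) RNA of total right lung homogenate was sequenced. The labels do not tie the samples to pups or litters, so the p-values measure the spread between these samples.

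In smooth muscle, myosin heavy chain (MYH11) filaments pull on actin filaments built in part from ACTA2. Force is set by phosphorylation of the myosin light chain, which calcium entry raises and relaxing signals lower. Genes of this machine are driven largely by serum response factor and its partner myocardin. Pericytes lie on capillaries inside the basement membrane, are recruited by PDGFRB signalling and take part in stabilising the vessel. Pericytes and vascular smooth muscle cells together are called mural cells and share several markers.

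Total counts per sample ranged from 13123731 to 18111086, counting each locus once. Levels are given as CPM, counts relative to the TMM-scaled size of the library, and a log2 fold change (log2FC) is the log2 ratio of hyperoxia to normoxia. A gene passed the test at an adjusted p below 0.05 in edgeR, with no minimum fold, and the thresholds used in the study for a differentially expressed gene (DEG) were an adjusted p below 0.01 with log2FC beyond 2 in size. The surfactant genes SFTPC (4033 to 12324 CPM) and SFTPA1 (2019 to 10190 CPM) ranked 1 and 3 by total count, so that defining genes of the labelled tissue were present. Libraries HT3 replicate 2 and HT5 replicate 1 stood apart in skeletal muscle genes. The summed level of 10 such genes was 437.8 CPM and 420.2 CPM in them, 89.6 CPM in HT3 replicate 3 and 35.2 to 61.9 CPM in the other 14 samples. MYH1 was at 0 in 5 samples and MYL1 in 11. Of the genes summed, only MYBPC1 had more than 13 counts in every sample, with at least 480. No 2 replicates of a group agreed within sampling noise.

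On day 3 none of the 9 genes passed, and the background of genes called was 1.03%. DESeq2 also called 0 of them, where it called 4.2% of all genes. In edgeR, 2 (MYH11 and DES) had an unadjusted p below 0.05, where the background was 15.3%. On day 5, 6 of 9 passed, against a background of 31.3%: DES was upregulated, and MYH11, LMOD1, CSPG4, RGS5 and the entry named TAGLN were downregulated. Without NT5 replicate 3, 3 passed, where 23.9% of all genes were called, and DES, CSPG4 and RGS5 no longer did. On day 7, 6 of 9 passed, against 47.4%: DES was again upregulated, and MYH11, LMOD1, CSPG4, RGS5 and MCAM were downregulated. By direction, 5 of 9 were lower on each of days 5 and 7, where the background was 15.4% and 23.7%, and 1 of 9 was higher, where it was 15.9% and 23.7%. The 9 genes were chosen with earlier results of these data known, so these shares describe them and cannot test an excess. No gene of the set was a DEG by the thresholds of the study on any day, where the background was 0.0533%, 1.58% and 4.59%. The hyperoxia and normoxia samples did not overlap for 3, 7 and 5 of the 9 genes on days 3, 5 and 7, while the share over all genes was 26.7%, 55.7% and 54.5%. In whole lung, fewer cells of a type and less RNA per cell cannot be told apart.

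**Figure D1:**
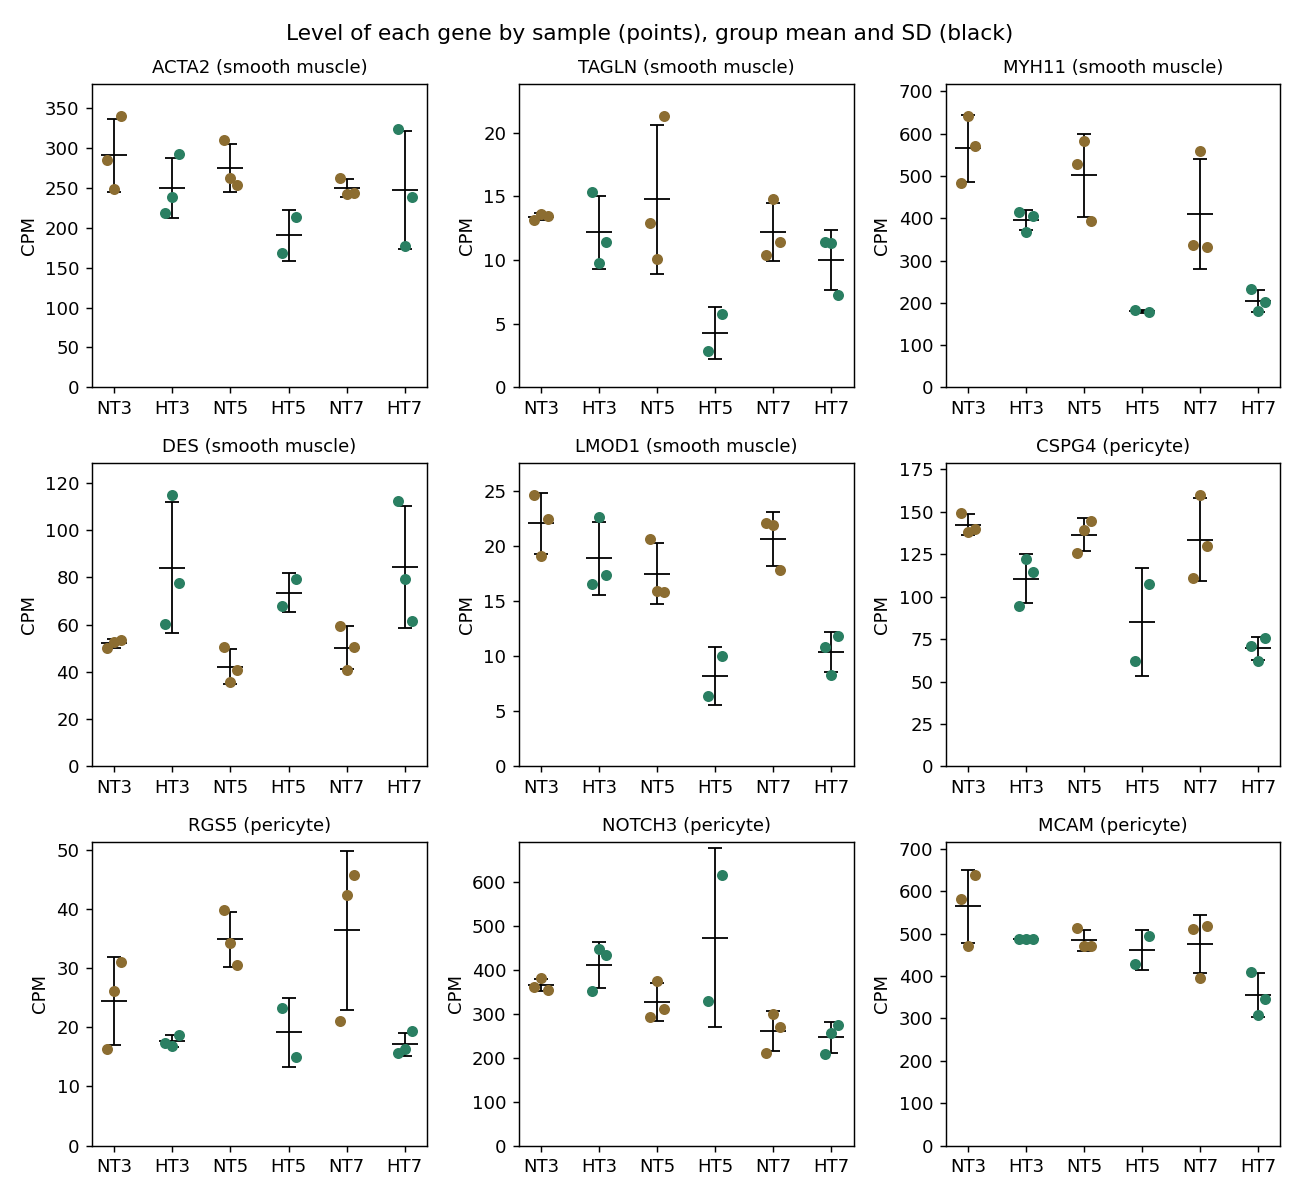
Level of the 9 genes in CPM (vertical axis, from 0, with its own range for each gene) in each sample, by group; points are samples (brown for 21% O2, green for 95% O2), and the black mark and bars are the group mean and SD (n = 3, and n = 2 in HT5). MYH11 and CSPG4 lie lower and DES higher in hyperoxia on every day with no overlap, and in the panel for NOTCH3 the 2 HT5 samples lie far apart at 330 and 618 CPM.

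**Figure D2:**
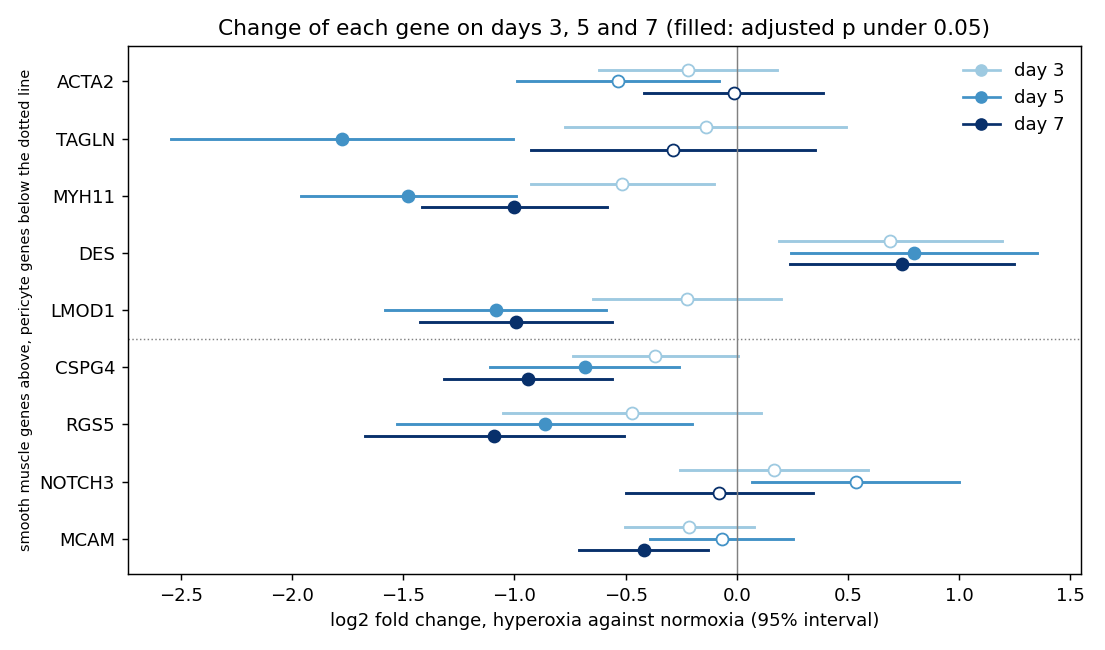
The log2FC of each gene in hyperoxia against normoxia (horizontal axis) on days 3, 5 and 7 with its 95% interval from edgeR; filled points passed at an adjusted p below 0.05. DES is the only gene of the set with all 3 points well to the right of 0, between 0.69 and 0.80, and ACTA2 has no filled point.

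MYH11 encodes the smooth muscle myosin heavy chain, the motor of contraction, and lies on chromosome 6 from 11019065 to 11130994 of OryCun2.0 (ENSOCUG00000013450). It was 483, 641 and 572 CPM in NT3 and 414, 368 and 405 CPM in HT3. On day 5 it was 529, 582 and 393 CPM in normoxia and 183 and 177 CPM in hyperoxia. The day 7 samples had 336, 559 and 332 CPM in normoxia and 233, 180 and 201 CPM in hyperoxia. Every hyperoxia sample lay below every normoxia sample of its day. The log2FC was -0.51 ± 0.19 (SE) on day 3, which did not pass (adjusted p = 0.216). MYH11 was downregulated on day 5 (log2FC -1.48 ± 0.23 SE, adjusted p = 0.000455) and on day 7 (log2FC -1.0 ± 0.19 SE, adjusted p = 0.00073). In the order of group means, NT3, NT5, NT7, HT3, HT7 and HT5, neighbours differed by less than the larger of their SDs except HT3 and HT7. The NDE1 gene overlaps MYH11 on the opposite strand, and whether reads were counted by strand is not given in the sources used here. The same holds for ACTA2 with STAMBPL1 and for CSPG4 with SNX33.

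LMOD1, a leiomodin that nucleates actin filaments in smooth muscle, was downregulated on the same days as MYH11 (chromosome 16, 69652629 to 69692526, ENSOCUG00000007492). Its level was 24.6, 19.1 and 22.5 CPM in NT3 and 16.6, 22.7 and 17.4 CPM in HT3, and these groups overlapped. It was 20.7, 16.0 and 15.9 CPM in NT5 against 6.39 and 10.1 CPM in HT5. On day 7 the normoxia samples had 22.1, 22.0 and 17.9 CPM and the hyperoxia samples 10.9, 8.35 and 11.9 CPM, so that the groups were separate on days 5 and 7. The log2FC was -0.22 ± 0.20 (SE) on day 3 (adjusted p = 0.641). LMOD1 was downregulated on day 5 (log2FC -1.08 ± 0.23 SE, adjusted p = 0.00347) and on day 7 (log2FC -0.99 ± 0.20 SE, adjusted p = 0.00103). Among its group means, the step from NT5 to HT7 was the only one between neighbours that exceeded the larger SD of the pair.

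ACTA2 encodes smooth muscle alpha-actin, which myofibroblasts also make (chromosome 18, 36853674 to 36870923, ENSOCUG00000008193). Its level was 285, 249 and 340 CPM in NT3 and 219, 239 and 292 CPM in HT3. It was 310.0, 262 and 254 CPM in NT5 and 168 and 213 CPM in HT5, the only day without overlap. By day 7 the values were 262, 243 and 243 CPM in normoxia and 324, 177 and 239 CPM in hyperoxia, with the highest and the lowest sample of the day both in HT7. ACTA2 passed on no day: the log2FC was -0.22 ± 0.19 (SE, adjusted p = 0.622) on day 3, -0.53 ± 0.21 (SE, adjusted p = 0.069) on day 5 and -0.01 ± 0.19 (SE, adjusted p = 0.956) on day 7. The 95% interval on day 7 ran from -0.41 to 0.39. No pair of neighbouring group means differed by more than the larger SD.

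DES encodes desmin, the intermediate filament protein of smooth, skeletal and heart muscle and of some pericytes, and it was the only gene of the set that was upregulated (chromosome 7, 160621412 to 160627456, ENSOCUG00000000968). Its level was 50.1, 52.6 and 53.7 CPM in NT3 and 60.3, 115 and 77.6 CPM in HT3. It was 50.5, 35.8 and 40.7 CPM in NT5 and 67.8 and 79.4 CPM in HT5. The NT7 and HT7 samples had 59.3, 41.0 and 50.7 CPM and 112, 79.2 and 61.7 CPM, respectively. Every hyperoxia sample lay above every normoxia sample of its day. The log2FC was 0.69 ± 0.24 (SE) on day 3, which did not pass (adjusted p = 0.173). DES was upregulated on day 5 (log2FC 0.80 ± 0.26 SE, adjusted p = 0.0302) and on day 7 (log2FC 0.75 ± 0.24 SE, adjusted p = 0.0173). Without HT7 replicate 1, its highest sample on day 7, the log2FC was 0.49 (adjusted p = 0.111), and without NT7 replicate 2 it was 0.62 (adjusted p = 0.0777). The call on day 5 was lost without HT5 replicate 2 (adjusted p = 0.212), NT5 replicate 2 (adjusted p = 0.0929) or NT5 replicate 3 (adjusted p = 0.0763).

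Skeletal muscle genes were high together with DES in HT3 replicate 2. Within HT5 and within HT7, the sample with the most DES did not have the highest summed skeletal muscle level. The part of skeletal muscle tissue in the change of DES was not tested. The highest DES sample on day 3, HT3 replicate 2, also had the highest summed skeletal muscle level, 437.8 CPM, and without it the log2FC of DES on day 3 fell to 0.40 (adjusted p = 0.481). HT5 replicate 1, with a summed level of 420.2 CPM, had less DES (67.8 CPM) than HT5 replicate 2 (79.4 CPM), whose summed level was 43.0 CPM. Without HT5 replicate 1, the log2FC of DES on day 5 was 0.91 (adjusted p = 0.045). In HT7 the summed skeletal muscle level was 52.1 to 61.9 CPM, against 40.7 to 45.7 CPM in NT7, and the sample with the most DES, HT7 replicate 1 (112.2 CPM), had the lowest of the HT7 sums. Sums of this size rest largely on MYBPC1, which had at least 480 counts in every sample, and less on the other skeletal muscle genes. The summed level of 9 heart muscle genes was 9.17 to 14.2 CPM in HT7 and 33.1 to 36.7 CPM in NT7, a sum to which RYR2, a calcium release channel, gave 3.17 to 7.14 CPM and 23.1 to 27.0 CPM. Of 9 skeletal muscle genes tested, 8 were positive on day 3 with none passing, 5 were upregulated and 1 downregulated on day 5 (66.7%, against 31.3% of all genes), and on day 7 none was upregulated and 1 was downregulated (11.1%, against 47.4% of all genes). The downregulated gene on both days was MYLPF, whose entry shares its counts with ZNF48 and was left out of the summed level. Of 7 heart muscle genes tested, none was upregulated on any day. On day 3, ACTC1, the cardiac actin, was downregulated (log2FC -2.13 ± 0.44 SE, adjusted p = 0.0363), named after its values were seen (14.3%, against 1.03% of all genes). RYR2 and MYBPC3 were downregulated on days 5 and 7 (28.6% on each, against 31.3% and 47.4%).

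The entry with the human name TAGLN, which stands for transgelin, an actin-bundling protein of smooth muscle, had low counts of 41 to 412 per sample. It has no rabbit gene name (ENSOCUG00000023919) and lies on chromosome 15 from 46197817 to 46199515, a span of 1699 bases, beside CENPE and entries with the human names PTMA and CXXC4. In the RefSeq annotation of another rabbit assembly, mOryCun1.1, TAGLN lies between SIDT2 and PCSK7, which are adjacent in the count table with no TAGLN entry between them. Whether this entry counts transgelin transcripts or a copy of the gene cannot be told from the table. Its level was 13.1, 13.6 and 13.5 CPM in NT3, 12.9, 10.1 and 21.3 CPM in NT5 and 10.4, 14.8 and 11.4 CPM in NT7. In hyperoxia it was 15.3, 9.75 and 11.4 CPM in HT3, 2.82 and 5.74 CPM in HT5 and 11.4, 11.3 and 7.27 CPM in HT7. Only HT5 was separate from its control group. The entry was downregulated on day 5 (log2FC -1.78 ± 0.36 SE, adjusted p = 0.00239), while the log2FC was -0.14 ± 0.30 (SE, adjusted p = 0.869) on day 3 and -0.29 ± 0.30 (SE, adjusted p = 0.452) on day 7. Without this entry, 5 of the other 8 genes passed on day 5 and 6 on day 7, where 31.3% and 47.4% of all genes were called.

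Because DES was higher and MYH11 lower in hyperoxia, their ratio within a sample was also described. The ratio of DES to MYH11 counts was 0.0932 ± 0.0109 in NT3, 0.0868 ± 0.0223 in NT5 and 0.134 ± 0.0539 in NT7 (SD, n = 3 each). It was 0.216 ± 0.0857 in HT3 (SD, n = 3), 0.409 ± 0.0539 in HT5 (SD, n = 2) and 0.410 ± 0.0919 in HT7 (SD, n = 3). Since each gene was itself separate on every day, the ratio adds its size only. The ratio of ACTA2 to MYH11 counts was 0.524 ± 0.118 in NT3, 0.561 ± 0.1003 in NT5 and 0.648 ± 0.187 in NT7. It was 0.633 ± 0.0966 in HT3, which overlapped NT3, and 1.06 ± 0.199 in HT5 and 1.19 ± 0.204 in HT7, which did not overlap their controls. These ratios are given without a test, and since the counts are not divided by gene length they compare samples, not the amounts of the gene products.

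**Figure D3:**
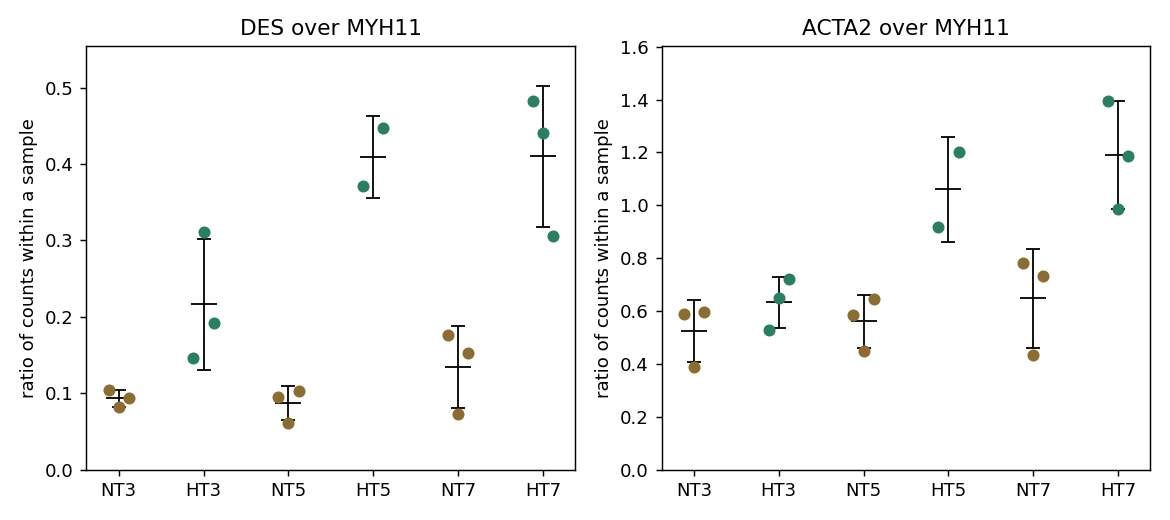
Ratio of DES to MYH11 counts (left) and of ACTA2 to MYH11 counts (right) within each sample (vertical axes, from 0, no unit), by group; points are samples and black marks the mean and SD. The HT5 and HT7 samples lie at 0.306 or more on the left and 0.919 or more on the right, and the normoxia samples reach 0.176 and 0.780.

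CSPG4 encodes the NG2 proteoglycan, a surface marker of pericytes that is also found on other mural and precursor cells (scaffold GL018768, 772148 to 786387, ENSOCUG00000003185). Its level was 149.5, 138 and 139.8 CPM in NT3 and 94.6, 122 and 115 CPM in HT3. It was 126, 139 and 145 CPM in NT5 and 62.4 and 107 CPM in HT5. The day 7 values were 111, 159.6 and 129.8 CPM in normoxia and 71.0, 62.3 and 75.6 CPM in hyperoxia. Hyperoxia lay below normoxia without overlap on all 3 days. The log2FC was -0.37 ± 0.17 (SE) on day 3, which did not pass (adjusted p = 0.335). CSPG4 was downregulated on day 5 (log2FC -0.68 ± 0.20 SE, adjusted p = 0.018) and on day 7 (log2FC -0.94 ± 0.18 SE, adjusted p = 0.000572). Without HT5 replicate 1, the lower of its 2 HT5 samples, the log2FC on day 5 was -0.35 (adjusted p = 0.187), without NT5 replicate 3 the adjusted p was 0.0501, and with the HT5 and NT5 samples alone in the fit it was 0.0943.

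RGS5, a regulator of G protein signalling that is abundant in pericytes, was also downregulated (chromosome 13, 29746376 to 29813095, ENSOCUG00000001169). Its level was 16.3, 26.1 and 31.0 CPM in NT3, 39.7, 34.3 and 30.5 CPM in NT5 and 21.1, 42.3 and 45.8 CPM in NT7. In hyperoxia it was 17.4, 16.8 and 18.7 CPM in HT3, 23.3 and 15.0 CPM in HT5 and 15.6, 16.3 and 19.4 CPM in HT7. The hyperoxia groups had means of 17.1 to 19.2 CPM and the normoxia groups 24.5 to 36.4 CPM, and hyperoxia and normoxia were separate on days 5 and 7. The log2FC was -0.47 ± 0.27 (SE, adjusted p = 0.435) on day 3, -0.86 ± 0.31 (SE, adjusted p = 0.0463) on day 5 and -1.09 ± 0.27 (SE, adjusted p = 0.00443) on day 7. The call on day 5 was lost without HT5 replicate 2 (log2FC -0.60, adjusted p = 0.344) and when any NT5 replicate was left out (adjusted p from 0.0568 to 0.104), and with the HT5 and NT5 samples alone in the fit (adjusted p = 0.051).

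NOTCH3, the Notch receptor of mural cells that receives the JAG1 signal from endothelium, passed on no day between hyperoxia and normoxia (scaffold GL018829, 704394 to 727211, ENSOCUG00000022014). Its level was 362, 382 and 355 CPM in NT3 and 351, 449 and 434 CPM in HT3. It was 294, 375 and 312 CPM in NT5 and 330 and 618 CPM in HT5. In the day 7 samples it was 211, 301 and 270.2 CPM in normoxia and 208, 257 and 276 CPM in hyperoxia. The groups overlapped on all 3 days. The log2FC was 0.17 ± 0.20 (SE, adjusted p = 0.741) on day 3, 0.54 ± 0.22 (SE, adjusted p = 0.0743) on day 5 and -0.08 ± 0.20 (SE, adjusted p = 0.77) on day 7. The value on day 5 rested on HT5 replicate 2: it was -0.0043 without that sample (adjusted p = 0.993) and 0.92 without HT5 replicate 1 (adjusted p = 0.00356).

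MCAM, the adhesion molecule CD146 of pericytes, smooth muscle and endothelial cells, had the smallest log2FC in size among the genes that passed on day 7 (scaffold GL018823, 757816 to 829191, ENSOCUG00000024055). Its level was 583, 471 and 640 CPM in NT3 and 488, 486 and 487 CPM in HT3. It was 513, 471 and 470.0 CPM in NT5 and 429 and 495 CPM in HT5. The level on day 7 was 511, 396 and 519 CPM in normoxia and 410.3, 309 and 347 CPM in hyperoxia, and the groups overlapped on each day. The log2FC was -0.21 ± 0.14 (SE, adjusted p = 0.477) on day 3 and -0.07 ± 0.15 (SE, adjusted p = 0.763) on day 5. MCAM was downregulated on day 7 (log2FC -0.42 ± 0.14 SE, adjusted p = 0.0193), a call lost without HT7 replicate 2 or 3 or NT7 replicate 1 or 3 (adjusted p from 0.0634 to 0.0802). With the HT7 and NT7 samples alone in the fit the adjusted p was 0.069. The summed level of 10 endothelial genes was 1359 to 1600 CPM in HT7 and 3944 to 4619 CPM in NT7. It was also lower on day 5, at 1803 to 1974 CPM in HT5 and 3449 to 4504 CPM in NT5, when MCAM did not pass. Their part in the change of MCAM was not tested. The annotated span of MCAM also overlaps RNF26 on the opposite strand and USP2, C1QTNF5 and MFRP on the same strand.

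Smooth muscle and pericyte genes were then set side by side as a level per sample, the mean log2 CPM of the 5 smooth muscle or 4 pericyte genes with each gene centred on its mean over the 17 samples. Hyperoxia minus normoxia was -0.10 for the smooth muscle level on day 3, -0.81 on day 5 and -0.32 on day 7 (log2). The difference for the pericyte level was -0.21, -0.30 and -0.61 on the same days. The smooth muscle level minus the pericyte level was 0.20 ± 0.05 in HT3 and 0.09 ± 0.07 in NT3 (SD, n = 3 each), which overlapped. On day 5 it was -0.61 ± 0.08 in HT5 (SD, n = 2) and -0.10 ± 0.16 in NT5 (SD, n = 3), without overlap. On day 7 it was 0.25 ± 0.28 in HT7 and -0.03 ± 0.27 in NT7 (SD, n = 3 each), which overlapped. These levels are a description with no test. Hyperoxia minus normoxia of the difference between the sets depended on the genes taken and on the way they were averaged. On day 3 it was 0.11, and it turned to -0.0025 with medians and to -0.068 without DES and MCAM. On day 5 it was -0.51, with -0.27 without the TAGLN entry, -0.69 with medians and -0.84 without DES and MCAM. On day 7 it was 0.29, with 0.092 without DES and MCAM, 0.13 without HT7 replicate 1 and 0.16 without NT7 replicate 3.

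**Figure D4:**
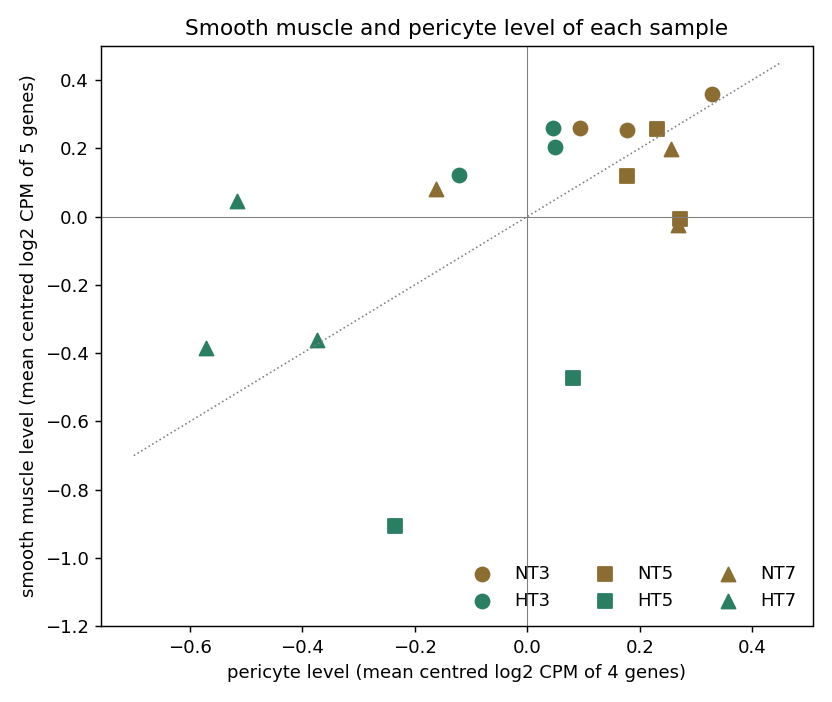
Smooth muscle level (vertical axis) against pericyte level (horizontal axis) of each of the 17 samples, both as mean centred log2 CPM; colour gives the oxygen group, shape the day, and the dotted line equal levels. The 2 HT5 samples lie lowest for smooth muscle, at -0.91 and -0.47, and the 3 HT7 samples lowest for the pericyte genes, at -0.57 to -0.37.

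Over time within hyperoxia, 5 of 9 genes were lower in HT7 than in HT3 and none was higher, against a background of 44.3% called in either direction and 22% lower. These were MYH11 (log2FC -0.95 ± 0.19 SE, adjusted p = 0.00125), LMOD1 (-0.87 ± 0.20 SE, adjusted p = 0.00309), NOTCH3 (-0.74 ± 0.20 SE, adjusted p = 0.00784), CSPG4 (-0.67 ± 0.18 SE, adjusted p = 0.00693) and MCAM (-0.45 ± 0.14 SE, adjusted p = 0.0137). The MCAM call was lost without HT7 replicate 2 (adjusted p = 0.0548). The log2FC of HT7 against HT3 was 0.00 ± 0.23 (SE) for DES, -0.02 ± 0.19 (SE) for ACTA2, -0.05 ± 0.27 (SE) for RGS5 and -0.28 ± 0.30 (SE) for the TAGLN entry, none of which passed.

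Within normoxia, none of the 9 genes passed between NT7 and NT3 in edgeR or DESeq2, and the background called was 0%. At an unadjusted p below 0.05 there were 2 of 9, MYH11 (log2FC -0.47 ± 0.19 SE, adjusted p = 0.719) and NOTCH3 (log2FC -0.49 ± 0.20 SE, adjusted p = 0.714), where the background was 6.27%. RGS5 had the opposite sign (log2FC 0.57 ± 0.27 SE, adjusted p = 0.8). For NOTCH3 the effect on day 7 minus that on day 3 was -0.25 ± 0.28 (SE, adjusted p = 0.566).

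Whether the effect of hyperoxia differed between days was tested directly. The effect on day 7 minus the effect on day 3 passed for none of the 9 genes, against a background of 20.5%, and 2 (LMOD1 and CSPG4) had an unadjusted p below 0.05, where the background was 34.9%. The largest difference was that of LMOD1 (log2 difference -0.77 ± 0.28 SE, adjusted p = 0.0658), which DESeq2 called (adjusted p = 0.0435), as did edgeR with the 4 groups alone in the fit (adjusted p = 0.0467). For MYH11 the log2 difference was -0.49 ± 0.27 (SE), and for DES it was 0.05 ± 0.33 (SE). A slope over days 3, 5 and 7 that differed between conditions was passed by none in edgeR or DESeq2, where the edgeR background was 18.9%, and 1 gene (CSPG4) had an unadjusted p below 0.05, against 33.4%.

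The wider programme was described with 94 tested genes of 101 listed in 4 groups. All gene lists were chosen with earlier results of these data known. Their shares and medians beside those of all genes are therefore a description and cannot test an excess. On day 3, 2 of the 94 passed, both downregulated (2.13%, against 1.03% of all genes): SMTN, which encodes smoothelin, a protein of contractile smooth muscle (log2FC -0.76 ± 0.16 SE, adjusted p = 0.0357), and CD248, an endosialin of pericytes and fibroblasts (log2FC -0.87 ± 0.18 SE, adjusted p = 0.0357). Both were named after their values were seen. With the replicate number as a block, which paired the day 3 samples, none of the 94 passed, and none passed when any of 5 of the 6 samples was left out, HT3 replicate 3 being the exception. DESeq2 called 10 of them and edgeR with the compared groups alone 8, where 4.2% and 2.25% of all genes were called. On day 5, 46 passed, 9 upregulated and 37 downregulated (48.9%, against 31.3%), and 16 passed without HT5 replicate 2, where 8.65% of all genes were called. On day 7, 61 passed, 11 upregulated and 50 downregulated (64.9%, against 47.4%). The median log2FC of the 94 genes was -0.15, -0.38 and -0.55 on days 3, 5 and 7, and that of all genes tested was 0.00, -0.02 and -0.01.

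Among 27 other genes of the contractile apparatus, 5 were upregulated and 13 downregulated on day 7 (66.7%, against 47.4% of all genes, median log2FC -0.46), after 2 and 9 on day 5 (40.7%, against 31.3%, median -0.34). The largest fall was that of FHL1, a LIM-domain protein of muscle (log2FC -2.24 ± 0.26 SE, adjusted p = 1.21e-05), which lay at 1042 to 1168 CPM in NT7 and 167 to 351 CPM in HT7. NEXN, an actin-binding protein (log2FC -1.55 ± 0.25 SE, adjusted p = 0.000169), and PDLIM3, a partner of alpha-actinin (log2FC -1.53 ± 0.31 SE, adjusted p = 0.00102), were also downregulated. SMTN was downregulated on day 7 (log2FC -1.50 ± 0.16 SE, adjusted p = 7e-06). PDLIM5, another partner of alpha-actinin (log2FC 1.30 ± 0.21 SE, adjusted p = 0.000154), SYNM, an intermediate filament protein that assembles with desmin (log2FC 1.14 ± 0.29 SE, adjusted p = 0.00455), and ACTN1, a non-muscle alpha-actinin (log2FC 0.63 ± 0.17 SE, adjusted p = 0.00689), were upregulated. SYNM was 6.29 to 8.97 CPM in NT7 and 13.4 to 20.2 CPM in HT7. Like DES it was separate and higher in hyperoxia on days 5 and 7, but on day 3 it was separate and lower (log2FC -0.53 ± 0.29 SE, adjusted p = 0.408).

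Of 30 tested genes that control contraction, 3 rose and 13 fell on day 5 (53.3%, against 31.3% of all genes, median log2FC -0.55), and 4 rose and 16 fell on day 7 (66.7%, against 47.4%, median log2FC -0.58). ADRA1B, an alpha-1 adrenergic receptor, was 4.98 to 9.64 CPM in NT7 and 0.634 to 1.94 CPM in HT7 (log2FC -2.78 ± 0.41 SE, adjusted p = 9.6e-05). EDNRB, an endothelin receptor that endothelium also expresses, was downregulated (log2FC -2.38 ± 0.37 SE, adjusted p = 0.000131). CACNA1C, the pore subunit of the L-type calcium channel, lay at 288 to 364 CPM in NT7 and 56.4 to 149 CPM in HT7 (log2FC -1.80 ± 0.28 SE, adjusted p = 0.000144). The rises were those of PTGIR, the prostacyclin receptor (log2FC 0.98 ± 0.29 SE, adjusted p = 0.0106), RGS4, a regulator of G protein signalling related to RGS5 (log2FC 0.84 ± 0.26 SE, adjusted p = 0.0166), and ATP2A2, the calcium pump of the sarcoplasmic reticulum (log2FC 0.58 ± 0.09 SE, adjusted p = 0.00015), as the 3 largest. The PTGIR groups overlapped on day 7. RGS4 rose on day 5 as well (log2FC 1.53 ± 0.28 SE, adjusted p = 0.00149), on the day when RGS5 fell.

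Among 21 regulators of muscle and mural genes, 1 rose and 9 fell on day 7 (47.6%, against 47.4%, median log2FC -0.39), and 3 rose and 7 fell on day 5 (47.6%, against 31.3%, median log2FC -0.21). The gene that rose on day 7 was KLF5, a zinc-finger factor (log2FC 1.03 ± 0.19 SE, adjusted p = 0.00052). The 3 largest falls were those of DLL4, HEYL and HEY1, a Notch ligand and targets of the pathway. Of the other Notch genes of this list, JAG1 rose on day 5 (log2FC 1.44 ± 0.27 SE, adjusted p = 0.00144), and on day 7 JAG1, RBPJ and HES1 did not pass and HEY2 fell, all named after their values were seen. DLL4, a ligand made by endothelium, was 66.4 to 177 CPM in NT7 and 19.0 to 23.5 CPM in HT7 (log2FC -2.63 ± 0.32 SE, adjusted p = 2.11e-05). HEYL, a transcriptional target of NOTCH3 in mural cells, was 61.0 to 88.8 CPM in NT7 and 13.9 to 24.9 CPM in HT7 (log2FC -2.11 ± 0.22 SE, adjusted p = 7e-06). HEY1, a Notch target of endothelium and mural cells, was downregulated on day 7 (log2FC -1.51 ± 0.26 SE, adjusted p = 0.000259). NOTCH3 itself had a log2FC of -0.08 on that day.

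Of 16 tested genes in the list of other pericyte genes, 1 rose and 8 fell on day 5 (56.2%, against 31.3% of all genes, median log2FC -0.64), and 1 rose and 12 fell on day 7 (81.2%, against 47.4% of all genes, median log2FC -0.92). The list holds the ligands PDGFA and PDGFB, the latter made by endothelium, and without them 1 rose and 10 fell of 14 on day 7. COX4I2 and NDUFA4L2, mitochondrial proteins enriched in pericytes, were both downregulated. COX4I2 was 41.4 to 45.3 CPM in NT7 and 6.76 to 8.65 CPM in HT7 (log2FC -2.50 ± 0.14 SE, adjusted p = 1.43e-07). NDUFA4L2 was 15.2 to 23.2 CPM in NT7 and 1.59 to 4.41 CPM in HT7 (log2FC -2.57 ± 0.34 SE, adjusted p = 3.97e-05). ANPEP, an aminopeptidase also found on other cells, had the largest fall (log2FC -4.03 ± 0.57 SE, adjusted p = 6.38e-05). The rise was that of ABCC9, the SUR2 subunit of the ATP-sensitive potassium channel (log2FC 1.29 ± 0.25 SE, adjusted p = 0.000636), with 12.7 to 18.5 CPM in NT7 and 23.3 to 50.6 CPM in HT7.

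**Figure D5:**
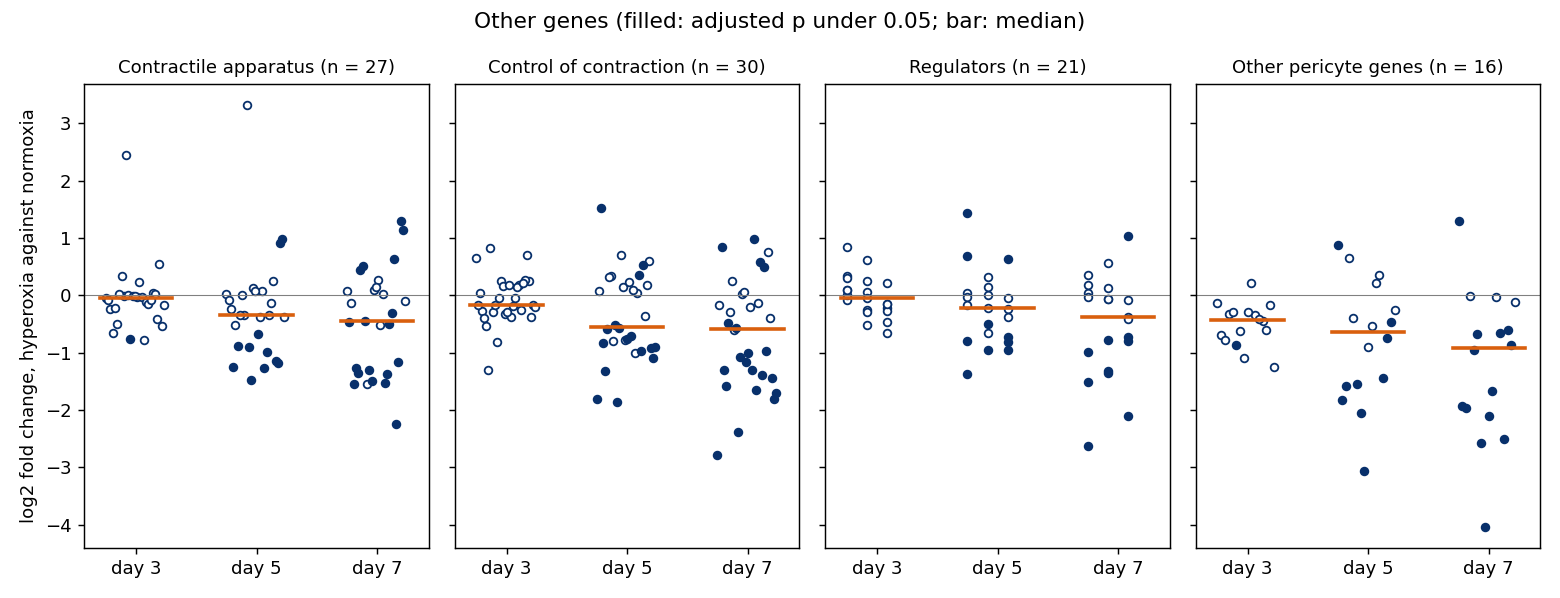
The log2FC in hyperoxia against normoxia (vertical axis) of the other genes of the 4 lists on days 3, 5 and 7; each point is a gene, filled points passed at an adjusted p below 0.05, and the orange bar is the median of the list. On day 7 the medians lie between -0.92 (other pericyte genes) and -0.39 (regulators), and the open point above 2 on days 3 and 5 in the left panel is LMOD3, a leiomodin of striated muscle.

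Endothelial and fibroblast genes were measured beside the smooth muscle and pericyte genes. Of 10 endothelial genes tested, 1 fell and none rose on day 3 (10%, against 1.03% of all genes), TIE1, an endothelial receptor (log2FC -0.87 ± 0.12 SE, adjusted p = 0.00316), named after its values were seen. The summed level of the endothelial genes on day 3 was 3461 to 4207 CPM in HT3 and 4371 to 4613 CPM in NT3, lower in hyperoxia without overlap. Of the same 10 genes, 1 rose and 7 fell on day 5, and 8 fell and none rose on day 7 (80% on each day, against 31.3% and 47.4% of all genes, median log2FC -1.85 on day 7). Of 10 fibroblast genes, none passed on day 3 in edgeR, 5 fell and none rose on day 5, and 1 rose and 5 fell on day 7 (50% and 60%, against 31.3% and 47.4%, median log2FC -0.36 on day 7). The summed level of the fibroblast genes was 9348 to 12088 CPM in HT3 and 14280 to 17363 CPM in NT3, and 7464 to 12382 CPM in HT5 and 14094 to 14876 CPM in NT5, lower in hyperoxia without overlap. On day 7 it was 10210 to 13375 CPM in HT7 and 10817 to 14815 CPM in NT7, which overlapped. Most of this sum came from COL3A1, FN1, COL1A2 and COL1A1, and no other gene in it exceeded 243.6 CPM in any sample. The part of endothelial cells and fibroblasts in the changes of the smooth muscle and pericyte genes was not tested.

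The genes whose pattern over the 17 samples was most like the smooth muscle level were ECHDC3 (Pearson r = 0.884), SEMA6A (r = 0.882), CTIF (r = 0.882), CAVIN3 (r = 0.876) and MGAT4B (r = 0.869). Those most like the pericyte level were SHROOM4 (r = 0.929), CALD1 (r = 0.927), DACH1 (r = 0.919), ZNF189 (r = 0.916) and ZNF366 (r = 0.914). These correlations describe likeness, without a test: the 17 samples share the 6 groups, and the genes were picked as the highest among all tested. CALD1, which encodes caldesmon, an actin-binding protein of smooth muscle, was downregulated on day 7 (log2FC -0.47 ± 0.12 SE, adjusted p = 0.00382) and had log2FC values of -0.08 on both earlier days.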

How the data were processed

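RNA-seq was carried out on 17 right lung homogenates. The authors deposited raw counts per locus for each sample, from stranded poly(A) libraries read as pairs. The submitters' processing notes name FastQC, STAR 2.7.10a and OryCun2.0, and the counting program is not given in the sources used here. The table holds 13827 entries on 13313 loci. A locus with several genes (434 loci) repeats its counts for each gene. These repeats made up 8.96% to 10.1% of the sample totals over all entries, and none of the 9 genes lies on such a locus. No human name was given for 44 entries, which stayed in the fit. Human gene names were taken from the table, and all 10 names of the set are in RefSeq's rabbit gene table.

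The members and lists were chosen with earlier results of these data known. Counts were fitted in edgeR 4.0.16 (R 4.3.3) by the quasi-likelihood test with TMM scaling (factors 0.958 to 1.05), filterByExpr and a mean per group over all 17 samples, with Benjamini-Hochberg adjustment across the 13142 genes tested. The slope test used day as a number. SE is the log2FC divided by the square root of the F statistic, and fitted fold changes used a prior count of 0.125. Log2 CPM used a prior count of 2. DESeq2 1.42.0 was an alternative test; others were another scaling, no filter, 1 entry per locus, the replicate number as a block, only the groups compared, leaving out each sample, the study's thresholds and, chosen after seeing the data, leaving out the TAGLN entry. Figures were drawn with matplotlib 3.10.9.

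Genes outside the set were named by rule: up to 3 with the largest rises and 3 with the largest falls on day 7 per list among those passing, and 5 most correlated with each level. Replicate numbers are shared by the groups. On day 3 the deviations of same-numbered samples correlated at 0.131 to 0.199, so the numbers were taken to pair the samples on that day. On day 7 the values were 0.0695 to 0.174, and differently numbered samples gave -0.151 to 0.0556. On day 5 only 2 pairs exist. The main fits used no pairing on any day, including day 3, and the replicate number entered only as the block of the alternative fit. Data were simulated on 12996 to 12998 genes with 100 genes changed at each size, a smaller share than was called on days 5 and 7. A log2 change of 1 was recovered in 65%, 46% and 65% of these genes on days 3, 5 and 7. For a log2 change of 2 it was 94%, 90% and 94%. A search for promoter motifs was not run, since no promoter sequence was used here.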

Additional observations from a re-analysis of the deposited data

Results flagged for a closer look

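None of the 9 genes had an effect of hyperoxia that differed between days 7 and 3 in edgeR with all 17 samples in the fit, though LMOD1 did with the 4 compared groups alone (adjusted p = 0.0467) and in DESeq2 (adjusted p = 0.0435). Of the 94 other genes of the 4 lists, 36 did, 4 with a more positive and 32 with a more negative effect on day 7 (38.3%, against 20.5% of all genes). The values of other named genes for which it differed are given as a description only, since most of these genes had been named for their change on day 7, which is part of the same difference. As a log2 difference, the effect of day 7 minus that of day 3 was -3.44 for ADRA1B, -2.97 for DLL4, -2.94 for ANPEP, -2.25 for FHL1, -2.05 for COX4I2, -1.97 for RYR2 and -1.95 for NDUFA4L2. It was -1.82 for HEY1, -1.64 for HEYL, -1.63 for CACNA1C, -1.57 for EDNRB and -1.38 for TIE1. It was -0.74 for SMTN, and -0.66 for PDGFB, a ligand in the pericyte list. SMTN and TIE1 had been named for their change on day 3. It was 1.67 for SYNM, 1.42 for ABCC9, 0.82 for KLF5 and 0.41 for ATP2A2. SYNM changed sign, since its HT3 samples lay below NT3 and its HT7 samples above NT7.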

How the results depend on the processing

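On day 3 no alternative made any of the 9 genes pass. On day 5 the count of 6 ranged from 3 to 6 when a sample was left out, with 3, all downregulated, without NT5 replicate 3, where 23.9% of all genes were called (8.65% to 32% over these fits). On day 7 it was 5 whichever sample was left out, where 39.5% to 50.4% of all genes were called, and for HT7 against HT3 it was 4 to 5. By the thresholds of the study the counts on days 5 and 7 and for HT7 against HT3 were 0. The day 7 minus day 3 difference was called for 1 gene, LMOD1, by DESeq2 and 1 with the compared groups alone in the fit, against 0. Adding the replicate block left the counts of the set at 0, 6 and 6 on days 3, 5 and 7, where 0.282%, 25.4% and 47.3% of all genes were called. It changed no other count of the set. For the 94 other genes on day 3, the block gave 0, DESeq2 10 and the compared groups alone 8, where 0.282%, 4.2% and 2.25% of all genes were called, and the thresholds of the study 0, and leaving out a sample gave 0 to 2. On day 5 leaving out a sample gave 16 to 43 and the thresholds of the study 2 (8.65% to 32% and 1.58% of all genes), and on day 7 these gave 55 to 66 and 9 (39.5% to 50.4% and 4.59%). The smooth muscle minus pericyte difference on day 3 (0.11) turned to -0.0025 with medians and to -0.068 without DES and MCAM, and leaving out a sample gave 0.08 to 0.15. On day 5 (-0.51) it was -0.69 with medians, -0.84 without DES and MCAM and -0.27 without the TAGLN entry, and -0.60 to -0.44 without a sample. On day 7 (0.29) it was 0.092 without DES and MCAM, and leaving out a sample gave 0.13 to 0.43. Signs of genes that had not passed turned when a sample was left out: the ranges were -0.0043 to 0.92 for NOTCH3 and -0.19 to 0.031 for MCAM on day 5, and -0.26 to 0.19 for ACTA2 and -0.21 to 0.038 for NOTCH3 on day 7. The cause of these shifts was not tested. The thresholds of the study were not run for the slope over days, which has no fold. In the simulated data on day 5, with 2 hyperoxia samples, 46% of genes changed by 1 on the log2 scale were recovered. Only 100 genes were changed at each size there, while 31.3% of all genes were called in the data. Recovery in the data can therefore differ and was not measured.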
